A study of Homo sapiens with 12 samples.

Results

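The 10 genes described here are the chemokines CXCL1, CXCL2, CXCL3, CXCL5, CXCL6, CXCL8, CXCL16, CCL2, CCL20 and CCL28, read from a table of 60623 genes in A549 cells. They were chosen by gene symbol, as chemokines that this cell line could make, with earlier results of the same data known, so their levels are given as a description. A549 is an established human lung adenocarcinoma line. RNA-seq was performed on 4 stable A549 lines, with 3 libraries labelled as biological replicates in each: V cells carried the empty lentiviral vector pLV-EF1a-IRES-Hygro, WT cells carried HA-tagged wild-type AHR, SA cells carried HA-AHR with S489A, and SD cells carried HA-AHR with S489D. All 4 lines were infected with lentivirus and selected with hygromycin (200 ug/ml for 72 h), and no AHR ligand is named in the labels. S489A replaces a serine that the study examined as a phosphorylation site of the kinase PLK1, and S489D places an acidic residue there as a mimic of phosphorylated serine, and the comparisons ask what this residue changes. Each construct is represented by 1 stable line, so an effect of the construct and a property of that line cannot be told apart, and the p-values measure the spread between libraries of a line.

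Chemokines are small secreted proteins that attract leukocytes by binding receptors on their surface. CXCL1, CXCL2, CXCL3, CXCL5, CXCL6 and CXCL8 carry a Glu-Leu-Arg motif ahead of their first cysteines, act on CXCR2 and draw neutrophils, whereas CCL2 draws monocytes, CCL20 draws cells with CCR6, CCL28 is a mucosal chemokine and CXCL16 is made as a membrane protein that proteases can shed. In epithelial cells, transcription of the neutrophil-attracting group is induced by NF-kB after stimulation with IL-1 or TNF, with AP-1 sites adding to it at some promoters. AHR is a ligand-activated transcription factor that binds DNA elements with a GCGTG core together with ARNT.

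The 6 neutrophil-attracting genes lie in 1 cluster on chromosome 4 (GRCh38, 73740541 to 74099196, 359 kb). CXCL8, CXCL6 and CXCL1 are on the plus strand, and CXCL5, CXCL3 and CXCL2 on the minus strand. Their promoters are shown because they share a motif although their levels in A549 cells ranged from the highest of the 10 genes to no read at all. Of the 10 genes, 8 were matched to the RefSeq promoter windows of GRCh38.p14 (250 bases before to 50 bases after the start of the gene). In the lines that follow, read 5′ to 3′ on the strand of the gene, capitals mark GGAATTTCC, a form of the NF-kB motif. CXCL5 (chr4:73998728-73998927, minus strand) and CXCL6 (chr4:73836428-73836627, plus strand) are shown over 200 bases, from 250 to 51 bases before the start.
CXCL5: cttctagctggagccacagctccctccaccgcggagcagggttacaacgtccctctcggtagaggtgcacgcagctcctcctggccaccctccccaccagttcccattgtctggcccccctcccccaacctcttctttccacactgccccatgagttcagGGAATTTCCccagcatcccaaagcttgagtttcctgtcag
CXCL6: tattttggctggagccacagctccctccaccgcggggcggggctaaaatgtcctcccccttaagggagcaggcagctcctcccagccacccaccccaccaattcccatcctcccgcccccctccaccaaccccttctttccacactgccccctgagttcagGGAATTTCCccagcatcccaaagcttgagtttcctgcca
CXCL1 (chr4:73869280-73869358, plus strand), CXCL2 (chr4:74099229-74099307, minus strand) and CXCL8 (chr4:73740443-73740521, plus strand) are shown over 79 bases centred on the motif. CXCL3 (chr4:74038749-74038777, minus strand) is shown over 29 bases. By the deposited coordinates of CXCL3 (74036589 to 74038807) this whole stretch lies inside the gene, so it is before the RefSeq start only.
CXCL1: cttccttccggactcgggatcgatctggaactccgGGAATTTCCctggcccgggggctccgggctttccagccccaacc
CXCL2: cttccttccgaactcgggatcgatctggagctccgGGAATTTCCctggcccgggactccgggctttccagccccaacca
CXCL3: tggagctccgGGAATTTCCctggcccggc
CXCL8: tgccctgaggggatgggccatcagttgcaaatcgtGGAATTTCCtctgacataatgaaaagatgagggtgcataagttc

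Each of the 6 promoters held GGAATTTCC once, on the strand of the gene, with its first base between 77 (CXCL2) and 91 (CXCL8) bases before the RefSeq start. At CXCL3 the match lies inside the gene by the deposited coordinates. Over both strands, the same letters were found in 162 of 35116 promoter windows of this length (0.461%), and neither CCL20 nor CCL28 had a match. Only this exact string was searched, so other forms of NF-kB site in these windows were not looked for. The share of windows is a description of this string and not a test. Over the 250 bases before the start, CXCL5 and CXCL6 were 85.3% identical and CXCL1 and CXCL3 were 81.4% identical in a global alignment, while CXCL8 shared between 42.0% and 45.4% with the other 5. The AP-1 motif TGANTCA was found at CXCL8, 137 bases before the start, and in 7.71% of all windows. GCGTG was found at CXCL5 on the opposite strand, 183 bases before the start, and at CCL20 and CCL28, against 36.5% of all windows. GCGTG and the other motifs do not overlap in these promoters. Such matches describe the letters of the windows and are not measured binding sites.

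**Figure D1:**
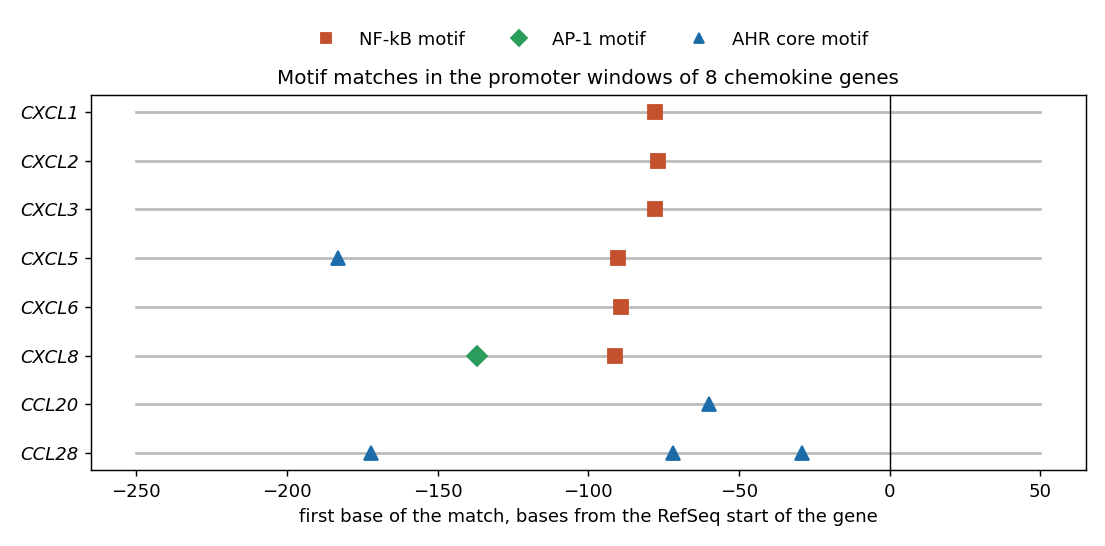
Positions of the 3 motifs in the promoter windows of the 8 matched chemokine genes; the horizontal axis gives bases from the RefSeq start of the gene, grey lines are the windows and symbols are matches on either strand. The NF-kB squares, which mark the exact string GGAATTTCC, stand between 77 and 91 bases before the start in 6 genes. CCL20 and CCL28 had no match to this string, and other forms of NF-kB site were not searched.

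Library totals ranged from 7844045 (WT replicate 1) to 11765576 (SA replicate 2) expected counts, so a single library limits an unseen gene to below 0.256 to 0.381 CPM (counts scaled to a common library size), the value of 3 counts and a limit of counting error only. The split of V from the AHR lines was checked with AHR, summed with the overlapping identifier ENSG00000283321: it was at 67.4, 65.8 and 74.3 CPM in V cells, at 450, 480 and 478 in WT cells, at 371, 407 and 400 in SA cells and at 292, 305 and 290 in SD cells. This level cannot tell which AHR line carried S489A or S489D. The SA and SD count columns were assigned by the letters A and D in their names. KRT8 and KRT18, keratins of simple epithelium, were at means of 2720 and 2220 CPM. The alveolar type 2 markers summed to at most 0.508 CPM and the endothelial markers to at most 0.316 CPM in any library. The 6 leukocyte markers summed to between 13.4 and 14.7 CPM in V cells, 17.9 and 18.9 in WT cells, 15.9 and 19.8 in SA cells and 18.2 and 24.5 in SD cells; this was mostly CD14, PTPRC had 2 counts over 12 libraries, and CSF1R, CD3E and MS4A1 had none. The 6 fibroblast markers, mostly COL1A1 with DCN at 0, summed to between 10.3 and 13.9 CPM in V cells and between 5.97 and 10.3 CPM in the other lines. The 5 epithelial markers, mostly KRT8 and KRT18, summed to between 6050 and 6300 CPM in V cells and between 4400 and 4860 in the other lines. Of these markers, KRT19 had only 24 counts and EPCAM 132 over the 12 libraries, so the sum says little about either. The part of these marker differences in the chemokine values was not tested.

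CXCL5 was by far the most abundant of the 10 chemokine mRNAs. It took between 83.7% and 87.8% of the chemokine counts in each library, and per transcript length (TPM, computed with the length of the canonical transcript) its mean level of 215 TPM (range 162 to 272) lay above every value of the other 9 genes. CXCL2 followed at 16.7 TPM (12.8 to 21.9), CXCL16 at 15 (11.4 to 17.3), CXCL3 at 11.2 (4.66 to 16.0), CXCL1 at 8.46 (3.52 to 12.4), CCL2 at 7.47 (3.70 to 12.2) and CXCL8 at 2.12 (0.667 to 3.01). From CXCL2 down to CCL2, the ranges of neighbours in this order overlapped. CCL20 (0.509 TPM) and CCL28 (0.105 TPM) were close to zero, and CXCL6 had no count in any of the 12 libraries, so these data show no transcript of CXCL6 above the limit of 3 counts per library and the description as chemokines made by A549 cells does not hold for it. The closely related promoters of CXCL5 and CXCL6 thus belonged to the most abundant gene of the group and to the gene with no read.

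**Figure D2:**
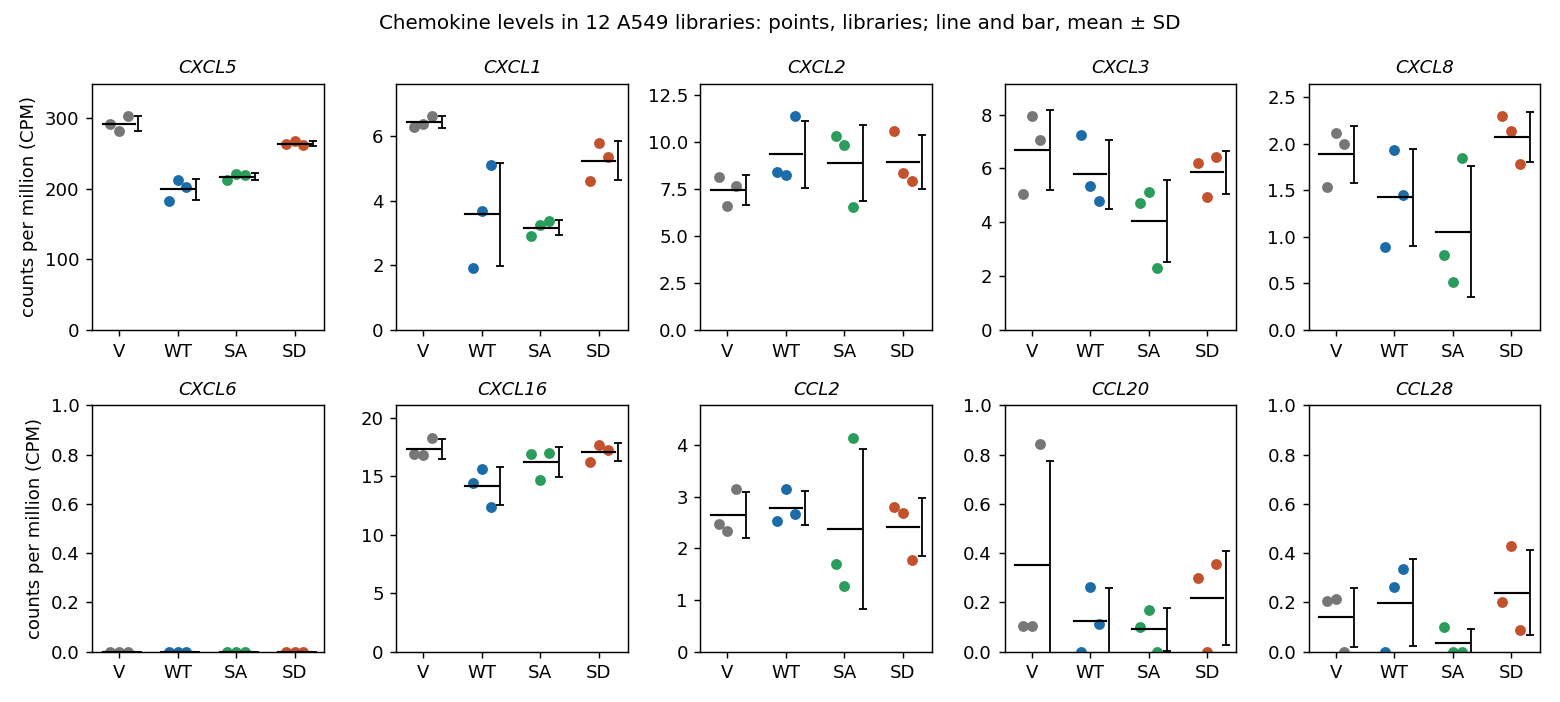
Level of each chemokine in CPM (vertical axes, linear and starting at 0, with a scale for each gene) in the V, WT, SA and SD lines; points are libraries, horizontal lines are means and bars are the SD of 3 libraries, drawn down to 0 where they would pass it. CXCL5 reaches 303 CPM while CXCL8, CCL20 and CCL28 stay at or below 2.30 CPM and CXCL6 is at 0 throughout.

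CXCL5, a ligand of CXCR2 (ENSG00000163735, chr4:73995642-73998677, minus strand), was at 292, 281 and 303 CPM in V cells, at 182, 212 and 202 in WT cells, at 212, 220 and 219 in SA cells and at 263, 267 and 261 in SD cells. V cells were highest, followed by SD, SA and WT cells, and only the WT and SA libraries overlapped. Lack of overlap was not rare: 16.0% of all genes tested showed it between SD and WT cells, and 13.6% between SD and SA cells. Between V cells and each AHR line the share was 21.9% (WT), 23.8% (SA) and 21.4% (SD). SD exceeded WT by 0.40 ± 0.058 on the log2 scale (SE; 264 ± 3.23 against 199 ± 15.6 CPM, SD, n = 3 each; adjusted p = 4.82e-04, edgeR quasi-likelihood test with Benjamini-Hochberg adjustment over all genes tested). SD also exceeded SA, by 0.28 ± 0.054 (264 against 217 ± 4.57 CPM; edgeR adjusted p = 0.0260). WT and SA differed by -0.13 ± 0.056 (edgeR adjusted p = 0.658), with a 95% interval from -0.23 to -0.016. The level of CXCL5 therefore separated the S489D line from both other AHR lines, and it did so by a fold of 1.32 over WT and 1.21 over SA.

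The SD over WT difference held whichever library was left out (edgeR adjusted p from 4.85e-04 to 0.0110). The SD over SA difference kept its size, between 0.26 and 0.29, but lost its call without SA replicate 1 (edgeR adjusted p = 0.0598), SA replicate 2 (0.163), SA replicate 3 (0.120) or SD replicate 2 (0.193).

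Against the empty vector, CXCL5 fell by 0.55 on the log2 scale in WT cells (SE 0.052, edgeR adjusted p = 1.73e-08) and fell by 0.43 in SA cells (SE 0.049, edgeR adjusted p = 9.52e-07). In SD cells the difference from V was -0.15 ± 0.053 and was not called (edgeR adjusted p = 0.121). All SD libraries were below all V libraries, but 21.4% of all genes tested did not overlap in this comparison. The WT, SA and SD differences from V use the same V libraries. The order of the lines by CXCL5 was the reverse of their order by summed AHR (mean ± SD of 69.1 ± 4.51 CPM in V cells, then 296 ± 8.16 in SD, 393 ± 18.9 in SA and 469 ± 16.4 in WT cells, n = 3), so the substituted residue and the amount of AHR mRNA cannot be told apart in the SD, SA and WT values. In bulk libraries, fewer cells making a transcript and less of it per cell cannot be told apart either.

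**Figure D3:**
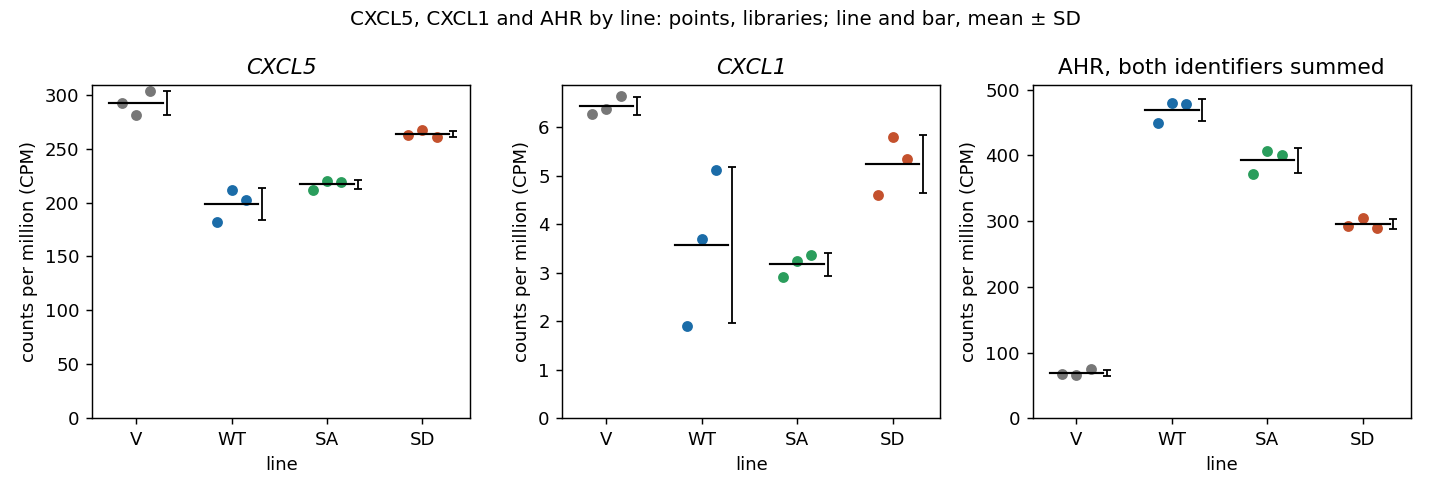
CXCL5, CXCL1 and AHR (AHR plus ENSG00000283321) in CPM by line, on linear axes from 0; points are libraries, horizontal lines are means and bars are the SD of 3 libraries. CXCL5 is lowest in WT (mean 199 CPM) and SA (217) and higher in SD (264) and V (292), while AHR is lowest in V (69.1) and rises through SD (296) and SA (393) to WT (469).

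The antisense gene ENSG00000287037 (chr4:73997933-74007682, plus strand) shares 422 exonic bases with CXCL5, and the setting for strand in the counting is not given in the sources used here. It was at 7.80 ± 1.54 CPM in V cells, 7.19 ± 0.948 in WT cells, 4.33 ± 0.893 in SA cells and 7.33 ± 2.00 in SD cells (SD, n = 3). Its 787 counts over the 12 libraries were 2.69% of the 29247 counts of CXCL5. It was lower in SA than in V cells (log2 difference -0.85 ± 0.23, edgeR adjusted p = 0.0180) and not called in the other 5 comparisons.

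CXCL1, the archetypal growth-regulated chemokine of this group (ENSG00000163739, chr4:73869393-73871308, plus strand), was at 6.27, 6.37 and 6.63 CPM in V cells, at 1.91, 3.69 and 5.12 in WT cells, at 2.91, 3.24 and 3.36 in SA cells and at 4.60, 5.79 and 5.34 in SD cells. All V libraries were above every library of the other lines, the SA libraries were all below the SD libraries, and WT spread widely, with its lowest value in WT replicate 1, the library with the smallest total. Of all genes tested, 21.9%, 23.8% and 21.4% did not overlap in WT, SA and SD against V, and 13.6% in SD against SA. CXCL1 fell by 1.01 on the log2 scale in SA against V (SE 0.23; 3.17 ± 0.235 against 6.42 ± 0.183 CPM, SD, n = 3 each; edgeR adjusted p = 0.00573), and the call held without any single library (edgeR adjusted p from 0.0176 to 0.0291). WT against V gave -0.83 ± 0.26 and missed the threshold (edgeR adjusted p = 0.0666). It passed the threshold without WT replicate 3 (log2 difference -1.15, edgeR adjusted p = 0.0236) but was weaker without WT replicate 1 (-0.56, edgeR adjusted p = 0.264). SD against SA gave 0.72 ± 0.24 and SD against WT 0.53 ± 0.28, and neither was called (edgeR adjusted p = 0.356 and 0.508). SD against V gave -0.29 ± 0.21 (edgeR adjusted p = 0.522).

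CXCL1, CXCL2 and CXCL3 are close relatives whose reads can be assigned to the wrong copy. Of all 50-base pieces of the canonical transcripts, 5.33% of CXCL1, 10.1% of CXCL2 and 5.26% of CXCL3 also occur in another of these 3 genes. The expected count of CXCL1 was a whole number in all 12 libraries, and those of CXCL2 and CXCL3 were not whole in 1 library each. With the 3 genes summed, SA against V gave -0.36 and was no longer called (edgeR adjusted p = 0.111).

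CXCL2 (ENSG00000081041, chr4:74097040-74099196, minus strand), another neutrophil attractant, was at 8.12, 6.58 and 7.68 CPM in V cells, at 8.39, 8.25 and 11.4 in WT cells, at 10.3, 9.82 and 6.54 in SA cells and at 10.6, 8.36 and 7.92 in SD cells. Its lines overlapped in every pair but WT against V, where 21.9% of all genes tested did not overlap. It was the member whose difference from V was above 0 in all 3 AHR lines (0.32 ± 0.19 in WT, 0.25 ± 0.19 in SA and 0.26 ± 0.18 in SD), with edgeR adjusted p of 0.404, 0.527 and 0.503.

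CXCL3 (ENSG00000163734, chr4:74036589-74038807, minus strand) was at 5.04, 7.96 and 7.05 CPM in V cells, at 7.24, 5.35 and 4.79 in WT cells, at 4.71, 5.12 and 2.30 in SA cells and at 6.21, 4.93 and 6.42 in SD cells. The 4 lines overlapped in every pair, and SA replicate 3 was the lowest library. SA against V gave -0.73 ± 0.26 (edgeR adjusted p = 0.0973), which was called with the replicate numbers as a block (edgeR adjusted p = 0.0480) and with every gene of at least 1 count tested (0.0391).

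CXCL8, known as interleukin 8 and a strong neutrophil attractant (ENSG00000169429, chr4:73740541-73743716, plus strand), had few reads, between 6 and 23 per library. It was at 1.54, 2.12 and 2.00 CPM in V cells, at 0.889, 1.93 and 1.45 in WT cells, at 0.802, 0.512 and 1.85 in SA cells and at 2.30, 2.14 and 1.78 in SD cells. SD and V cells were at the upper end and SA cells at the lower, with overlap in every pair of lines. The counts were 8, 6 and 21 in SA and 7, 22 and 13 in WT libraries. They were 23, 20 and 20 in SD and 15, 20 and 19 in V libraries. Compared between SD or V and SA or WT, CXCL8 thus passed the filter on low counts only through the SD or V libraries. Nothing is read from the size of these differences. SD against SA gave 0.96 ± 0.44 with a 95% interval from 0.10 to 1.82 (edgeR adjusted p = 0.567), and SD against WT gave 0.50 ± 0.39 (edgeR adjusted p = 0.708). The value for SD against SA was 1.66 without SA replicate 3 and 0.62 without SA replicate 2, and that for SD against WT was 0.80 without WT replicate 2 and 0.28 without WT replicate 1, none of them called. At this depth a change of CXCL8 of the size seen for CXCL5 was not detectable.

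CXCL16, the transmembrane ligand of CXCR6 (ENSG00000161921, chr17:4733533-4739928, minus strand), was at 16.9, 16.8 and 18.3 CPM in V cells, at 14.4, 15.6 and 12.4 in WT cells, at 16.9, 14.7 and 17.0 in SA cells and at 16.2, 17.7 and 17.2 in SD cells. The WT libraries were below all V and all SD libraries, in comparisons where 21.9% (WT against V) and 16.0% (SD against WT) of all genes tested did not overlap. WT against V gave -0.29 ± 0.13 (edgeR adjusted p = 0.228) and SD against WT gave 0.27 ± 0.13 (edgeR adjusted p = 0.479), so neither was called. SD and V differed by -0.022 ± 0.12, with a 95% interval from -0.26 to 0.21.

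CCL2, the monocyte attractant (ENSG00000108691, chr17:34255218-34257203, plus strand), was at 2.47, 2.33 and 3.16 CPM in V cells, at 2.54, 3.16 and 2.67 in WT cells, at 1.70, 1.28 and 4.15 in SA cells and at 2.80, 2.68 and 1.78 in SD cells. SA cells held both its highest and its lowest library, and all lines overlapped. No comparison of CCL2 was called, with log2 differences between -0.22 (SD against WT) and 0.23 (WT against SA).

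CCL20, the ligand of CCR6 (ENSG00000115009, chr2:227805739-227817564, plus strand), had 24 counts over the 12 libraries: V cells had 1, 1 and 8, WT cells 0, 3 and 1, SA cells 1, 2 and 0 and SD cells 3, 0 and 4. V replicate 3 alone held 8 of them. CCL28, a ligand of CCR10 (ENSG00000151882, chr5:43376645-43412391, minus strand), had 18 counts: V cells had 2, 2 and 0, WT cells 0, 3 and 3, SA cells 1, 0 and 0 and SD cells 2, 4 and 1. Neither passed the filter on low counts in any comparison, and differences between lines in these genes were not detectable at this depth. CXCL6 (ENSG00000124875, chr4:73836640-73849064, plus strand), the neighbour of CXCL5 in sequence, was at 0 in all libraries.

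Across the group, 7 of the 10 genes passed the filter in each comparison, and CXCL6, CCL20 and CCL28 in none. In SD against WT, 1 member was called higher (CXCL5), where 0.708% of all 14828 genes tested were called. In SD against SA it was again CXCL5 (1 higher; 0.220% of all genes). In WT against SA edgeR called 0 members (DESeq2 0), where 0.0803% of all genes were called. There 1 tested member had an unadjusted edgeR p under 0.05, as had 1093 of all 14942 genes tested. Against V, 1 member was lower in WT (CXCL5), where 5.24% of all genes were called. In SA, 2 were lower than in V (CXCL5 and CXCL1), where 7.17% of all genes were called. In SD against V edgeR called 0 (DESeq2 0), where 5.41% of all genes were called. There too 1 tested member had an unadjusted edgeR p under 0.05, as had 2592 of all 14890 genes tested. The median log2 difference of the 7 tested members was 0.27 in SD against WT, 0.28 in SD against SA, 0.18 in WT against SA, -0.29 in WT against V, -0.43 in SA against V and -0.14 in SD against V, where the medians of all genes tested were between -0.0024 and 0.0030. In SD against SA, the difference was above 0 for all 7 tested members, from 0.014 for CXCL2 and CCL2 to 0.96 for CXCL8, with the call for CXCL5 alone. The 2 smallest of these changed sign when 1 library was left out, CXCL2 without SA replicate 3 (-0.17) or SD replicate 1 (-0.12) and CCL2 without SA replicate 1 (-0.17), SA replicate 2 (-0.30), SD replicate 1 (-0.11) or SD replicate 2 (-0.065). CXCL8 passed the filter on low counts in SD against SA only through the SD libraries. Nothing is therefore read from its 0.96 or from the number of members above 0. The calls were of CXCL5 and CXCL1, and the other 5 tested members were called in no comparison.

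**Figure D4:**
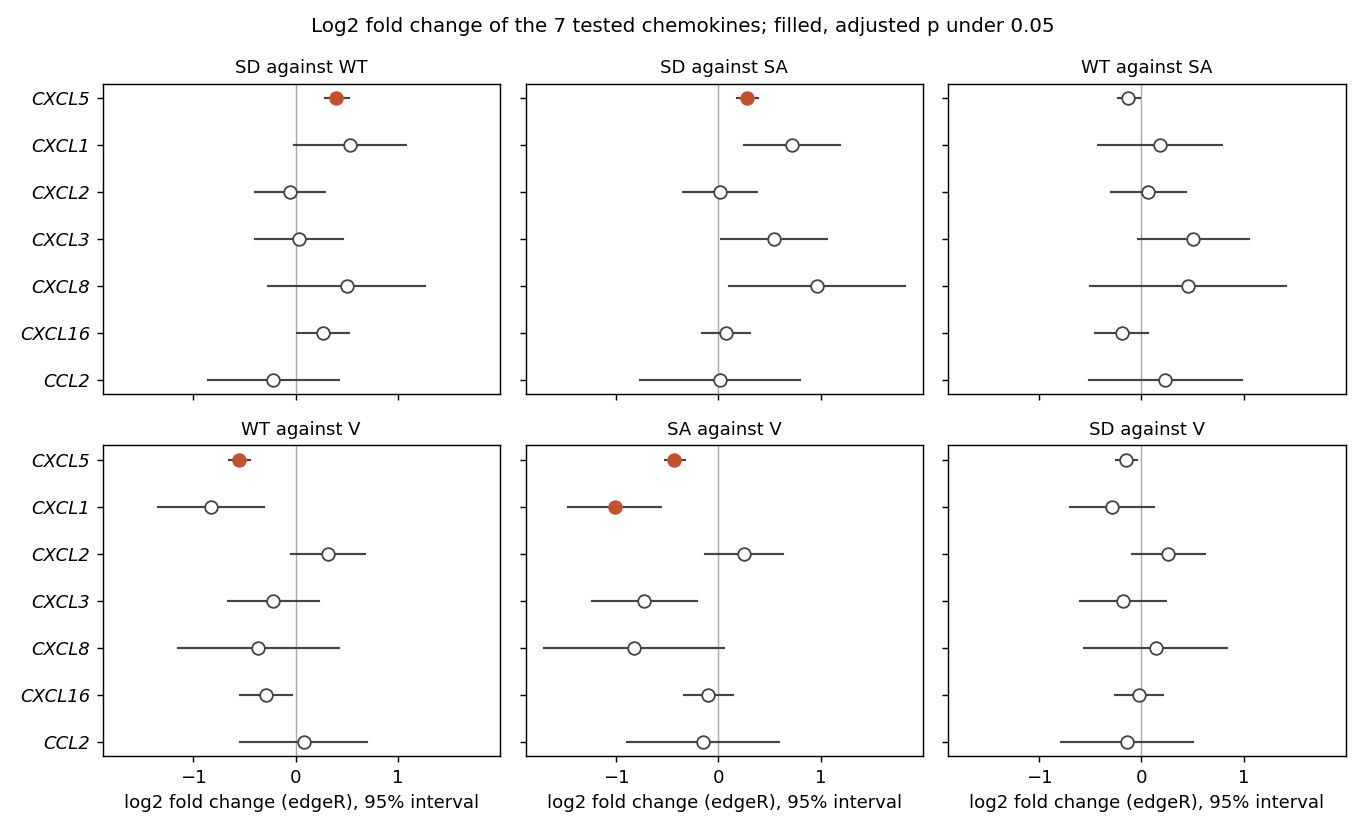
Log2 fold change (horizontal axis) of the 7 tested chemokines in the 6 comparisons, with 95% intervals as lines; filled circles have an edgeR adjusted p under 0.05. CXCL5 is filled to the right of 0 in SD against WT (0.40) and SD against SA (0.28) and to the left in WT against V (-0.55) and SA against V (-0.43), and CXCL1 is filled in SA against V (-1.01).

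The members did not vary alike over the 12 libraries. As a description over log2 CPM, with the 12 libraries falling into 4 lines, CXCL1 followed CXCL5 most closely (Pearson r = 0.87), CXCL16 gave r = 0.71 with CXCL5, and CXCL8 gave r = 0.57. CXCL2 gave r = -0.36 with CXCL5 and -0.20 with CXCL1. Over the same libraries the genes whose pattern was most like that of CXCL8 were MINDY4 (r = 0.93), CEP290 (0.90), KIAA0513 (0.89), YME1L1 (0.87) and CENPQ (0.86), and those most like CCL20 were MOSPD1 (0.87), DNAJC3 (0.84), PIGB (0.84), FST (0.83) and PPP4R1L (0.82). These are the highest of 14802 and 14803 genes, and with so few counts of CXCL8 and CCL20 they are no finding.

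Of 36 other chemokines listed, 35 were in the table, 9 had any count and CCL26 alone passed the filter. CCL26, an eosinophil attractant, was at a mean of 2.92 CPM (1.79 to 4.24), above the means of CXCL8 (1.61 CPM) and CCL2 (2.56 CPM), and was called in none of the 6 comparisons. CCL5 followed at 0.355 CPM and CCL27 at 0.112 CPM, against 0.196 CPM for CCL20 and 0.153 CPM for CCL28 among the members. The levels just outside the members were thus as high as those of the lowest members.

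Of 23 chemokine receptors, 14 had a count and 3 or 4 passed the filter. CXCR1 and CXCR2, the receptors for the neutrophil-attracting group and named here after their values were seen, had 0 and 2 counts over the 12 libraries. CCR7, which directs lymphocytes to lymph nodes, was lower in WT than in V cells (5.77 ± 0.823 against 9.48 ± 1.34 CPM, SD, n = 3; log2 difference -0.73 ± 0.20, edgeR adjusted p = 0.0224). In that comparison 5.24% of all genes were called, and CCR7 was the only call among the 3 receptors tested. ACKR3, an atypical receptor that takes up CXCL12, was at 1.92 ± 0.609 CPM in SD and 0.383 ± 0.0566 in V cells (SD, n = 3), on 59 against 11 counts. It had 12 to 25 counts in each SD library and 3 to 4 in each V library. ACKR3 thus passed the filter on low counts in this comparison only through the SD libraries. It was called higher in SD than in V cells, where 5.41% of all genes were called, and nothing is read from this call.

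All 15 listed NF-kB subunits and feedback genes were tested, and none was called among the SD, SA and WT lines, where between 0.0803% and 0.708% of all genes were called, so that a list of this size would seldom hold a call and nothing is read from its absence. TNIP1, an inhibitor of the pathway, was higher in SA than in V cells (0.22 ± 0.059, edgeR adjusted p = 0.0205), and BCL3, an IkB-like cofactor, was higher in SD than in V cells (0.21 ± 0.060, edgeR adjusted p = 0.0346). Each was the only call among the 15 genes in its comparison, where 7.17% (SA against V) and 5.41% (SD against V) of all genes were called. These calls are thus near the share of all genes.

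Of 18 inducing cytokines and their receptors, 10 or 11 were tested and none was called among SD, SA and WT, where the same low shares of all genes apply. TNF, the classical inducer, had no count. Against V, 1 was higher and 1 lower in WT, 2 were higher and 1 lower in SA, and 3 were higher and 1 lower in SD cells, where 5.24%, 7.17% and 5.41% of all genes were called in WT, SA and SD against V. IL6, a cytokine and itself an NF-kB target, was at 1.98 ± 0.483 CPM in SD and 0.209 ± 0.00336 in V cells (SD, n = 3), on 60 against 6 counts. It had 15 to 23 counts in each SD library and 2 in each V library. IL6 thus passed the filter on low counts in this comparison only through the SD libraries. Its call is among the 3 higher in SD cells, and nothing is read from it. TNFRSF1A, the main TNF receptor, was higher than in V by 0.16, 0.22 and 0.19 on the log2 scale in WT, SA and SD cells (edgeR adjusted p = 0.0170, 0.00249 and 0.0224). IL18, a cytokine of the IL-1 family, was lower than in V by -0.37 in SA and -0.32 in SD cells (edgeR adjusted p = 0.00249 and 0.0189), and IL6ST, the shared signalling receptor of the IL-6 family, was higher by 0.20 in SD cells (edgeR adjusted p = 0.0328).

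Of 10 genes that control the decay of chemokine mRNAs or cleave the proteins, 9 were tested and none was called among SD, SA and WT, from which nothing is read given the low shares of all genes called there. Those called against V were all higher (3 in SA cells, where 7.17% of all genes were called, and 2 in SD cells, where 5.41% were). ZFP36, which binds AU-rich elements and promotes mRNA decay, exceeded V by 0.49 ± 0.11 in SA and 0.45 ± 0.11 in SD cells (edgeR adjusted p = 0.00568 and 0.0135). Its relative ZFP36L1 exceeded V by 0.37 ± 0.049 in SA and 0.28 ± 0.055 in SD cells (edgeR adjusted p = 9.58e-06 and 0.00194), and HNRNPD, another protein binding AU-rich elements, exceeded V by 0.22 ± 0.055 in SA cells (edgeR adjusted p = 0.0105).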

How the data were processed

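Poly-A RNA-seq of 12 libraries from 4 A549 lines was used. Per the labels and the study's methods, the authors trimmed reads with Trimmomatic 0.39, used RSEM with the GRCh38 transcript annotation and deposited its expected counts per gene, unnormalized. The comparison table made by the authors, which holds their fold changes, p-values and q-values, was not used. These were rounded to integers and fitted with edgeR 4.0.16 under R 4.3.3 (filterByExpr with a minimum count of 10 and total of 15, TMM, quasi-likelihood test), each comparison on its own 6 libraries, two-sided, with Benjamini-Hochberg adjustment over all genes tested and a call at an adjusted p under 0.05. Levels are CPM with TMM factors (0.993 to 1.01) over 12 libraries. TPM used GENCODE 44 canonical transcript lengths. The 95% intervals are normal intervals from the edgeR standard error. Within each line no library was a copy of another, and pairs from different lines were not compared in this way. The fits were tested on simulated data, with log2 changes larger than those called for CXCL5 here.

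The members and lists were chosen with earlier results of these data known. All 10 members are named in each library. Of every other list at most 4 called genes with the smallest adjusted p are named, with the 3 most abundant other chemokines and the 5 genes nearest in pattern to CXCL8 and to CCL20. Alternatives were other filters, DESeq2 1.42.0 and its size factors, 1 fit of all 12 libraries, the replicate number as a block, leaving out each library, and CXCL1, CXCL2 and CXCL3 summed. Motifs were searched on both strands of RefSeq promoter windows (35116 windows of 300 bases, GRCh38.p14), and promoters were aligned with Biopython 1.88.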

Additional observations from a re-analysis of the deposited data

How the results depend on the processing

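Of 61 alternative values for members called in a comparison, 56 kept their direction and call, 5 lost the call and 0 reversed. Of 447 for members not called, 415 stayed uncalled in the same direction, 5 gained a call and 27 changed sign. DESeq2 gave no adjusted p for 9 member values, which are not counted. The number of members called in WT against V was 2 (CXCL1 and CXCL5) when every gene with at least 1 count was tested and with at least 10 counts in every library, and 1 to 2 when leaving out 1 library. The number called in SD against SA was 0 to 1 when leaving out 1 library. With CXCL1, CXCL2 and CXCL3 summed, the log2 difference was 0.10 in SD against WT, -0.14 in WT against V, -0.36 in SA against V and -0.033 in SD against V, of opposite sign to CXCL2 alone. Leaving out 1 library changed the sign of small uncalled differences: CCL2 ranged from -0.83 to 0.16 in SA against V, -0.30 to 0.70 in SD against SA, -0.26 to 0.050 in SD against V, -0.076 to 0.92 in WT against SA and -0.023 to 0.22 in WT against V. CXCL2 ranged from -0.19 to 0.11 for SD against WT, -0.11 to 0.18 for WT against SA, and for SD against SA from -0.17 to 0.13. CXCL1 ranged from -0.14 to 0.46 in WT against SA, CXCL3 from -0.084 to 0.21 in SD against WT and CXCL16 from -0.048 to 0.018 in SD against V. The causes of these changes were not tested.

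Pairs of libraries with the same replicate number gave r from -0.12 to 0.19 for their deviations, over 0.1 in 6 of 18 pairs, against -0.17 to 0.14 and 2 of 36 pairs with different numbers. Values over 0.1 were thus more frequent among same-numbered pairs, although not every such pair reached it. Whether the numbers pair the libraries cannot be told from this, and the main fits did not use them. With the replicate block the genes called over the whole table changed from 774 to 507 for WT against V, from 12 to 25 for WT against SA, from 105 to 245 for SD against WT, and for SD against SA from 33 to 165. Among the members the block added the call of CXCL3 in SA against V (log2 difference -0.75, 3 members called) and left the other member calls as they were. For CXCL5 in SD against SA the block gave 0.28 (edgeR adjusted p = 0.00125, against 0.0260 without it). With every gene of at least 1 count tested, WT against SA had 103 calls, SD against SA 153 and SD against WT 252. A fit of all 12 libraries called 5 genes in WT against SA, and DESeq2 called 18. Leaving out 1 library moved the calls over the whole table to between 45 and 145 for SD against WT (105 with all libraries), 11 and 56 for SD against SA (33), 2 and 25 for WT against SA (12), 434 and 720 for WT against V (774), 621 and 1195 for SA against V (1069), and 502 and 856 for SD against V (806). Depth limits CXCL8 (6 to 23 counts per library), CCL20, CCL28 and CXCL6 most.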
